A study of Mus musculus with 20 samples.

Results

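Genes of fatty acid oxidation and ketogenesis were examined in the liver and in epididymal white fat (eWAT, the adipose depot beside the epididymis) of mice with an altered insulin receptor. The set holds 32 genes named by symbol, and all 32 were found among the 15608 genes of the liver table and the 20738 genes of the eWAT table. The genes were chosen for their function, with earlier results of these data known. After the filter on low counts 32 of the 32 were tested in liver and 30 of the 32 in eWAT, where Fabp1 and Creb3l3 fell below the filter.

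The animals were male mice of 2 months, and polyadenylated RNA was read from 20 libraries. The 4 groups were WT liver, IR 4A liver, WT eWAT and IR 4A eWAT, with 5 libraries in each. IR 4A is a form of the insulin receptor altered at the site that binds MAD2, a mitotic checkpoint protein with a part in clearing the receptor from the cell surface. The labels name neither the strain, nor whether 1 or both copies carried the change, nor a treatment or fasting state. They do not tie a library to an animal either, so the p-values measure the spread between libraries.

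Fatty acids enter a cell through carriers such as CD36, are bound by small proteins of the FABP family and are joined to coenzyme A. The carnitine shuttle carries the long chains into the mitochondrion, where a spiral of dehydrogenases, hydratases and thiolases removes acetyl units and hands electrons to the respiratory chain. Peroxisomes shorten very long chains first, and in liver surplus acetyl units leave as ketone bodies during fasting. The nuclear receptor PPARα drives many of these genes in hepatocytes, and insulin restrains the pathway, while white fat mainly stores fatty acids and releases them.

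PPARα is known to bind DNA with the retinoid X receptor at 2 copies of AGGTCA separated by 1 base, so that arrangement was looked for in the 250 bases before each start site, on both strands. RefSeq promoters (GRCm38.p6) were at hand for 26 of the 32 genes. These genes had 29 promoters, with a pair each for Creb3l3, Bdh1 and Acsl1. With up to 2 mismatches the repeat was found in 4 of the 29 promoters (13.8%), each of another gene, against 3.24% of 32841 promoters of all genes. With up to 1 mismatch it was found in 1 of 29 (3.45%), against 0.484% of all promoters. The stretches of these 4 genes are shown, in the direction of the gene, because their match had up to 2 mismatches. The capitals mark the best match to the repeat on either strand. The Fabp1 match has 1 mismatch and the other 3 have 2 each.
Fabp1, chr6:71199772-71199864, plus strand: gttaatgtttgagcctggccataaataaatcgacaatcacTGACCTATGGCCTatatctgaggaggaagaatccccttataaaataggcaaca
Cd36, chr5:17835907-17835999, minus strand: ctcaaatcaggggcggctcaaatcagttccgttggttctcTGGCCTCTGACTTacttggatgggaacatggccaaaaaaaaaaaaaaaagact
Creb3l3, chr10:81092748-81092840, minus strand: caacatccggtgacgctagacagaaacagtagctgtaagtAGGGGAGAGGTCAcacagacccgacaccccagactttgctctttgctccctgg
Etfa, chr9:55512268-55512360, minus strand: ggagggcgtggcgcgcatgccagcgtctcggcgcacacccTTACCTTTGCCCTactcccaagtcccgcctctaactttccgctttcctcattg

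The match lies from 67 to 55 bases before the Fabp1 start, from 63 to 51 bases before that of Cd36, from 209 to 197 bases before that of Creb3l3 and from 77 to 65 bases before that of Etfa. A match describes letters only, and binding was not measured in these animals. In the same window of the other 22 genes the best match had at least 3 mismatches.

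Hadha and Hadhb encode the α and β subunits of the mitochondrial trifunctional protein, which carries out the last steps of the spiral for long chains. They lie head to head on chromosome 5, with start sites 273 bases apart on opposite strands. The 250 bases before the Hadhb start, chr5:30155003-30155252 on the plus strand of GRCm38.p6, are shown because they lie between the 2 starts and because Hadha is the only gene of the set whose groups did not overlap in eWAT.
Hadhb upstream: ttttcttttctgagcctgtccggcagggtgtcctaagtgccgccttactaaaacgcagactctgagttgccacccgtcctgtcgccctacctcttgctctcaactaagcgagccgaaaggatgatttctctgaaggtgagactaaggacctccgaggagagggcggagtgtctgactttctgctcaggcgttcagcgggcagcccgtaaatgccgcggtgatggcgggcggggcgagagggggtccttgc

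Total counts ran from 17989420 to 24238359 in the liver libraries and from 13651874 to 21615358 in the eWAT libraries. Hepatocyte markers summed to 67630 to 81840 CPM, the counts scaled to a common library total, in the 10 liver libraries. Of the 8 adipocyte markers 5 had counts in liver, summing to 99.1 to 157.2 CPM in WT and 126 to 147.9 CPM in IR 4A. Plin1, which coats the lipid droplet of fat cells, was at most 0.236 CPM there. All 8 adipocyte markers were present in every eWAT library. The eWAT libraries also held RNA of the neighbouring epididymis: its 12 markers averaged 9.99 to 11.1 on the log2 CPM scale in 9 libraries and 3.78 in WT 4. WT 4 also had the highest adipocyte marker level, 10.1, and IR 4A 3 and IR 4A 4 had the lowest, 6.55 and 7.20, against 8.15 to 9.12 in the other 7. In liver 10 acute phase genes averaged 10.2 in WT 1 and 9.07 in WT 3, against 4.96 to 7.05 in the other 8. These libraries bear on results below and are named there.

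The liver libraries held far more message for the pathway than the eWAT libraries did. In WT animals 28 of the 32 genes were lower in eWAT than in liver and 2 were higher at an adjusted p under 0.05 (edgeR's quasi-likelihood test, Benjamini-Hochberg over all genes tested), while 33.9% of all genes were lower and 43.2% higher. The median log2 difference over the 32 genes was -2.37, against 0.19 over all 14696 genes. Fabp1 and Creb3l3 passed the filter here only through liver, and without them 26 of 30 were lower. Levels compared between tissues are CPM scaled over all 20 libraries, given as mean ± SD of 5 libraries. This scaling matters, since a few abundant transcripts fill much of the liver libraries: with plain library totals the median over all genes rose to 1.69 and that of the set to -0.88. Relative to the median of all genes, 29 of the 32 were lower in eWAT under both scalings. The eWAT levels are those of fat with epididymis RNA, of which WT 4 held the least. Without eWAT WT 4 the median of the set was -2.65, against 0.04 over all genes, with 29 of 32 negative. The part of epididymis RNA in these differences was not tested.

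**Figure D1:**
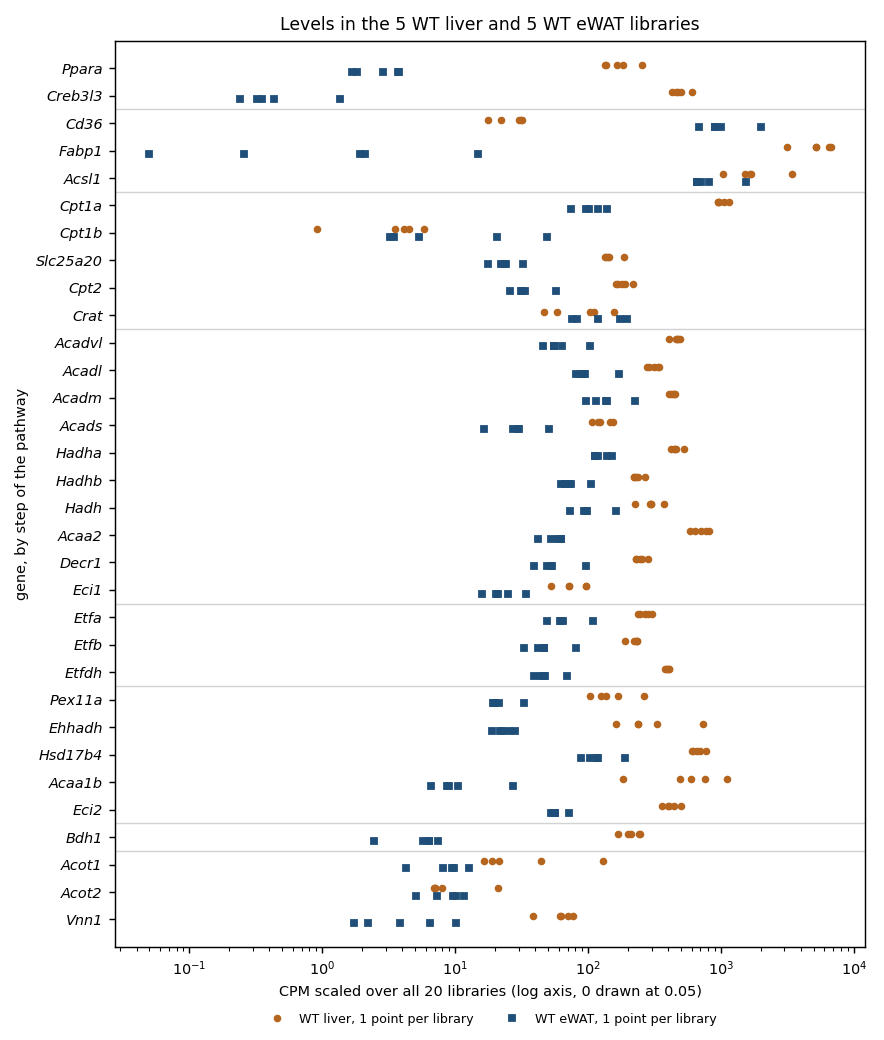
Levels of the 32 genes in the 5 WT liver and 5 WT eWAT libraries (1 point per library; CPM scaled over all 20 libraries, log axis, 0 drawn at 0.05), grouped by step from the regulators at the top to the thioesterases at the bottom. Cd36 and Cpt1b lie to the right in eWAT, Crat and Acot2 overlap, and the regulators and Fabp1 are the farthest apart.

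The regulators stood far apart. Ppara, which encodes PPARα itself, was at 173 ± 48.5 CPM in liver and 2.76 ± 0.997 CPM in eWAT, a log2 difference of -5.97 (SE 0.28, edgeR adjusted p = 5.83e-13). Creb3l3, a membrane-bound transcription factor that acts beside PPARα in fasting, was at 494 ± 67.7 CPM in liver and 0.54 ± 0.46 CPM in eWAT (log2 difference -9.79, SE 0.47, edgeR adjusted p = 7.15e-13).

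The entry genes split between the tissues. Fabp1, the fatty acid binding protein of liver, was at 5335 ± 1430 CPM in liver and 3.82 ± 6.22 CPM in eWAT (log2 difference -10.44, SE 1.71, edgeR adjusted p = 1.77e-05). Cd36, the uptake protein, ran the other way, with 26.6 ± 6.35 CPM in liver and 1098 ± 516 CPM in eWAT (log2 difference 5.37, SE 0.52, edgeR adjusted p = 1.63e-08). Acsl1, which joins long chains to coenzyme A, was at 1857 ± 906 CPM in liver and 877 ± 382 CPM in eWAT (log2 difference -1.08, SE 0.33, edgeR adjusted p = 5.36e-03). The direction of Acsl1 turned with plain library totals (0.39, edgeR adjusted p = 0.227).

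Of the carnitine shuttle, Cpt1a, the liver form of the outer-membrane transferase and the known control point of the pathway, was at 1011 ± 89.2 CPM in liver and 107 ± 24.7 CPM in eWAT (log2 difference -3.25). Slc25a20, the translocase of the inner membrane, and Cpt2, the transferase inside it, were lower in eWAT by log2 differences of -2.62 and -2.35. The muscle form Cpt1b was higher in eWAT (log2 difference 2.12, SE 0.86, edgeR adjusted p = 0.031), with 16.4 ± 19.8 CPM against 3.77 ± 1.8 CPM. Without eWAT WT 2 the Cpt1b difference was 1.12 (edgeR adjusted p = 0.204), and the call was also lost without any 1 of 4 other libraries. Crat, which moves acetyl groups on carnitine, had 129 ± 53.7 CPM in eWAT and 95.1 ± 44.0 CPM in liver and did not pass (edgeR adjusted p = 0.201), though it did with upper-quartile scaling (0.70, edgeR adjusted p = 0.0407) and with plain library totals (1.94, edgeR adjusted p = 1.14e-05).

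All 10 genes of the mitochondrial spiral and all 3 of electron transfer were lower in eWAT, by log2 differences of -1.52 (Hadh) to -3.65 (Acaa2). With plain library totals the calls of Acadm, Acadl, Hadhb, Hadh and Eci1 were lost. The 5 peroxisomal genes were lower by -2.43 (Hsd17b4, a multifunctional enzyme of the peroxisomal spiral) to -5.65 (Acaa1b, a peroxisomal thiolase). Bdh1, which interconverts the 2 main ketone bodies, was at 213 ± 32.6 CPM in liver and 5.64 ± 1.89 CPM in eWAT (log2 difference -5.24, SE 0.22). Vnn1, a pantetheinase and PPARα target, and Acot1, a thioesterase that releases fatty acids from coenzyme A, were lower by -3.66 and -2.39, and the Acot1 call was lost with plain library totals. Its mitochondrial relative Acot2 had 10 ± 6.2 CPM in liver and 8.75 ± 2.58 CPM in eWAT and did not pass (edgeR adjusted p = 0.613). The Acot2 difference was -0.19 on the main scale but turned to 0.09 with upper-quartile scaling and to 1.29 with plain library totals (edgeR adjusted p = 0.00135).

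Levels of different genes were compared only within a tissue, as CPM per kilobase of the longest coding transcript. In WT liver Fabp1 led with 5866, followed by Acsl1 (289), Acaa2 (282), Acaa1b (225) and Hsd17b4 (151). Cpt1b was last with 0.791, after Acot2 (2.76) and Cd36 (4.74). In WT eWAT Cd36 led with 494 and Acsl1 followed with 344, and then came Acadm, the dehydrogenase of medium chains (106), Hadh (88.8) and Etfb (85.0). The spread between libraries makes neighbours in these orders hard to separate: in liver the Acsl1 libraries ran from 619 to 2055 CPM. Acaa1b, Acot1 and Acot2 shared 45.7%, 39.2% and 37.1% of their 31-base words with other transcripts, mainly those of Acaa1a and of each other, so the division of reads among these copies is uncertain.

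In liver none of the 32 genes passed the adjusted threshold between IR 4A and WT, where 0.00805% of all genes tested did, and 17 differences were positive and 15 negative. The median log2 difference was 0.0091, against 0.0048 over all genes. At an unadjusted p under 0.05 there were 3 of the 32, 2 higher and 1 lower in IR 4A, against 18.1% of all genes. No gene of the set had groups that did not overlap, against 3.51% of all genes. DESeq2 called none of the 32 either, where it called 435 of 15608 genes. With plain library totals the median over all genes rose to 0.16 and that of the set to 0.17, and Acadl passed (0.39, edgeR adjusted p = 0.0402). From here on, CPM values are scaled within a tissue.

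The 3 genes were Cd36, Acadl and Crat. In liver Cd36 was at 18.3, 19.3, 18.7, 10.9 and 13.4 CPM in WT 1 to WT 5 and at 18.2, 32.2, 26.7, 30.9 and 16.7 CPM in IR 4A 1 to IR 4A 5. Of the IR 4A libraries, numbers 2, 3 and 4 lay above every WT library, and 1 and 5 lay among them. The log2 difference was 0.63 (SE 0.21, edgeR adjusted p = 0.175), on a level that is low for this organ. Macrophage markers were high in the same libraries. The 8 macrophage markers averaged 4.52, 4.22 and 4.31 on the log2 CPM scale in IR 4A 2, 3 and 4, against 3.17 to 3.97 in WT and 2.60 and 3.53 in IR 4A 1 and 5. They summed to 85.0 to 152 CPM in WT and to 60.9 to 217 CPM in IR 4A, with none at 0. The 8 endothelial markers averaged 2.617, 2.597 and 2.405 in IR 4A 2, 3 and 4. Their highest level was 2.861 in WT 5, where Cd36 was at 13.4 CPM. The part of these cell types in the Cd36 values was not tested.

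Acadl encodes the dehydrogenase of long chains. It was at 172, 190, 166, 213 and 201 CPM in WT liver and at 227, 220, 207, 234 and 222 CPM in IR 4A liver. The groups overlapped only where WT 4 exceeded IR 4A 3, and the log2 difference was 0.23 (SE 0.08, edgeR adjusted p = 0.198). Crat was at 93.8, 35.1, 67.2, 29.1 and 62.6 CPM in WT and at 43.3, 29.2, 32.2, 42.1 and 21.9 CPM in IR 4A. WT 1, WT 3 and WT 5 were the high libraries, and the log2 difference was -0.77 (SE 0.29, edgeR adjusted p = 0.216). WT 1 and WT 3 were also the libraries high in acute phase genes, and with them left out the Crat difference was -0.33 and that of Acadl 0.14.

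**Figure D2:**
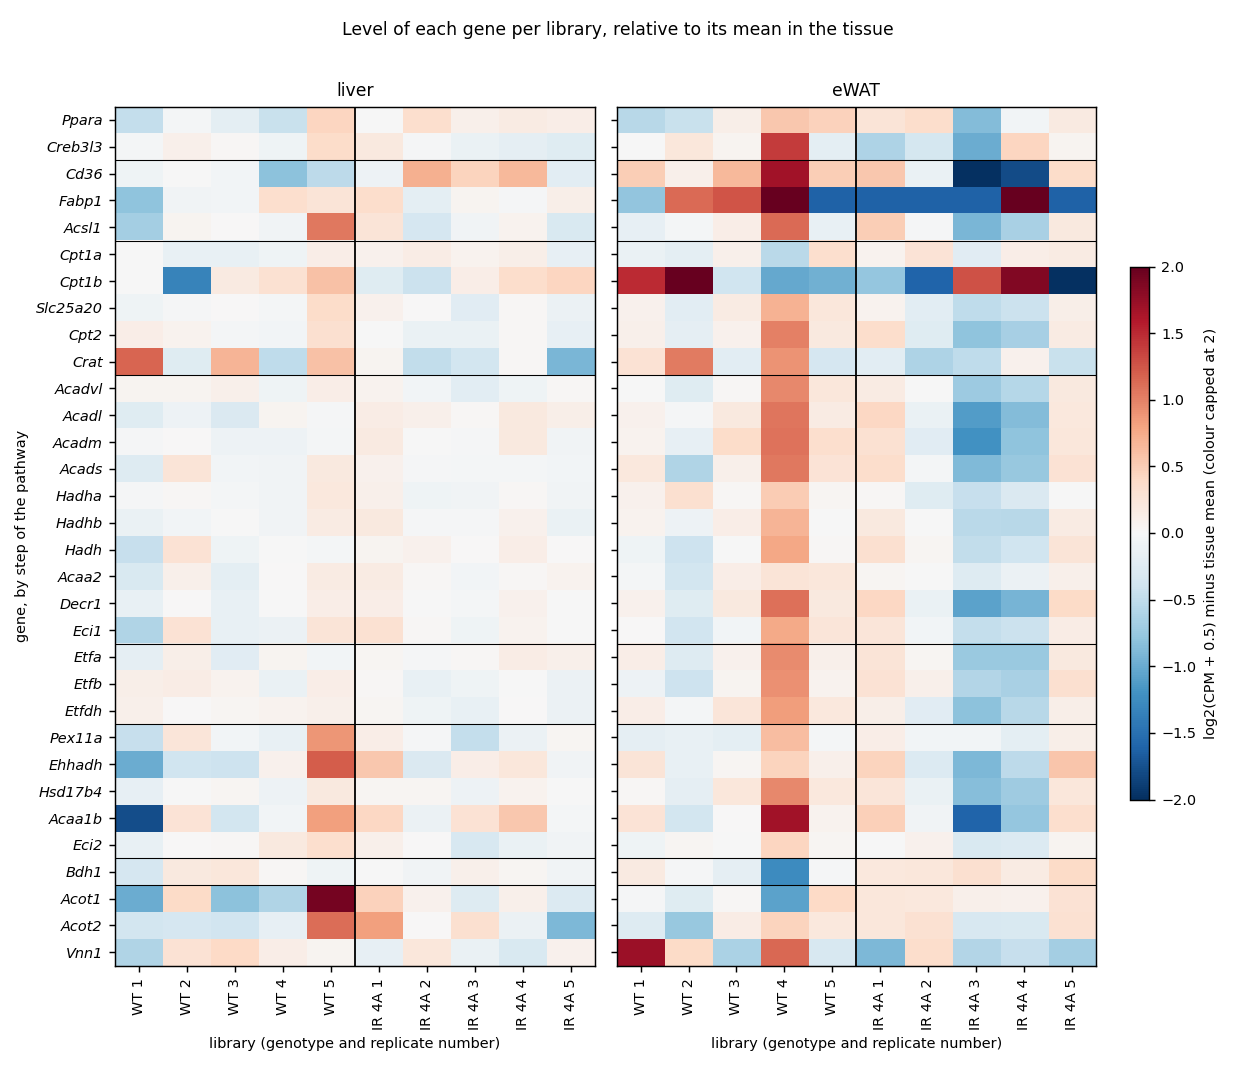
Level of each of the 32 genes in each library, as log2(CPM + 0.5) minus the gene's mean over the 10 libraries of the tissue (colour, limited at 2 in either direction), for liver on the left and eWAT on the right. In liver WT 5 is red and WT 1 blue for peroxisomal genes and thioesterases, and in eWAT WT 4 is red and IR 4A 3 and IR 4A 4 blue for most of the genes.

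What stood out in liver was how often WT 5 and WT 1 held the extremes. WT 5 was the highest of the 10 libraries in 16 of the 32 genes (50%, against 11.7% of all genes tested), and WT 1 the lowest in 14 of 32 (43.8%, against 19.2%). The SD of log2 CPM was larger in WT than in IR 4A for 25 of the 32 (78.1%, against 67.5% of all genes). The median SD of the set was 0.20 in WT and 0.13 in IR 4A, below the 0.24 and 0.17 over all genes tested. No test was made of this difference in spread.

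The widest ranges among the WT libraries were those of Acot1, Cpt1b (6.32-fold, on few counts), Acaa1b and Ehhadh. Acot1 was at 9.98, 26.8, 11.4, 13.3 and 78.6 CPM in WT and at 28.3, 21.7, 16.9, 21.9 and 16.7 CPM in IR 4A. Its WT range was 7.87-fold and its IR 4A range 1.69-fold. Ehhadh, the bifunctional enzyme of the peroxisome, was at 96.8, 145, 144, 203 and 444 CPM in WT and at 278, 157, 210, 224 and 183 CPM in IR 4A. Acaa1b was at 111, 461, 296, 367 and 668 CPM in WT and at 506, 351, 464, 551 and 371 CPM in IR 4A. In Acot1, Ehhadh and Acaa1b WT 1 was lowest and WT 5 highest, and the IR 4A libraries lay between them.

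The same 2 libraries bounded Acsl1 (619 CPM in WT 1 and 2055 in WT 5, with 782 to 1185 in IR 4A). Pex11a, which takes part in the division of peroxisomes, reached 160 CPM in WT 5 against 61.8 to 102 in the other 9 libraries. Ppara itself was 81.4, 110, 99.3, 82.8 and 152 CPM in WT and 113, 144, 122, 127 and 124 CPM in IR 4A (log2 difference 0.26, SE 0.16, edgeR adjusted p = 0.398). Without WT 5 the difference of Acot1 turned from -0.41 to 0.46, that of Acsl1 from -0.25 to 0.08, and that of Ehhadh rose from 0.03 to 0.51, and 22 of the 32 were positive (median 0.09). With WT 1 and WT 3 left out the median of the set was -0.10, with 24 of 32 negative, and with the acute phase level as a covariate it was -0.11, with 26 of 32 negative. The share of the acute phase response in these values was not tested further.

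**Figure D3:**
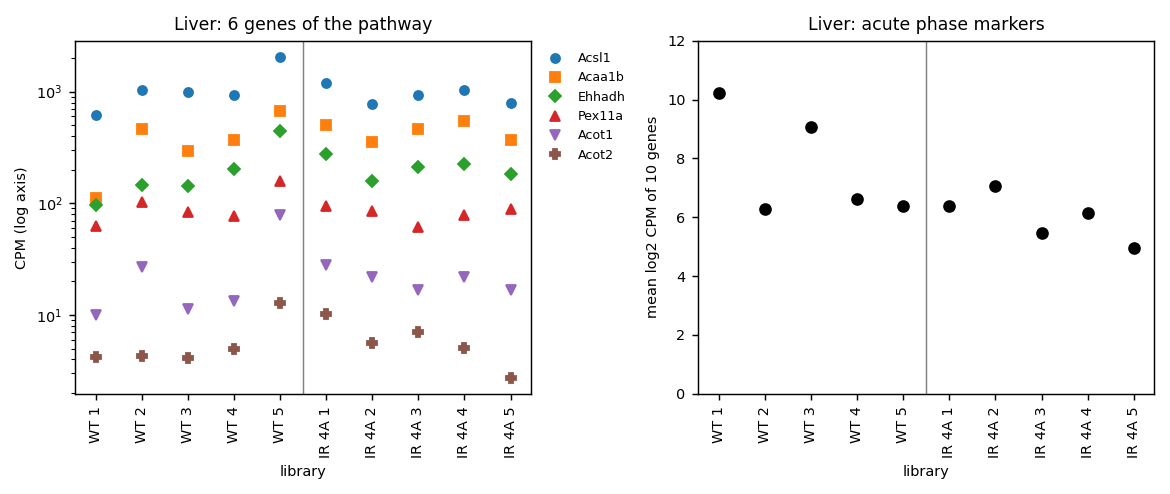
Left, CPM (log axis) of 6 genes in the 10 liver libraries; right, the mean log2 CPM of 10 acute phase genes in the same libraries. WT 5 is the highest library for all 6 genes on the left, and WT 1, low for most of them, has the highest acute phase level (10.2).

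The core of the pathway varied little in liver. Among the 10 genes of the mitochondrial spiral the log2 differences ran from -0.10 (Acadvl, the dehydrogenase of very long chains) to 0.23 (Acadl). The highest library exceeded the lowest by 1.22-fold for Hadha and Decr1, a reductase for unsaturated chains, and by 1.88-fold for Eci1, an isomerase for unsaturated chains. Etfa and Etfb, the subunits of the flavoprotein that collects the electrons, and Etfdh, which passes them to ubiquinone, differed by 0.11, -0.13 and -0.12. Etfdh was at 246, 229, 235, 239 and 246 CPM in WT and at 236, 215, 206, 231 and 212 CPM in IR 4A, without passing (edgeR adjusted p = 0.388).

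Cpt1a was at 635, 573, 573, 596 and 693 CPM in WT liver and at 675, 703, 669, 687 and 567 CPM in IR 4A liver (log2 difference 0.11, SE 0.09, edgeR adjusted p = 0.578). The ketone body enzyme Bdh1 was at 101, 146, 149, 130 and 120 CPM in WT and at 127, 121, 136, 131 and 122 CPM in IR 4A (log2 difference -0.02, SE 0.10, edgeR adjusted p = 0.944). Fabp1 ran from 1872 to 4150 CPM in WT and from 2870 to 4190 CPM in IR 4A (0.09, SE 0.19). The groups of these 3 genes overlapped. For Cpt1a 4 of the 5 IR 4A libraries lay above 4 of the 5 WT libraries, with WT 5 high and IR 4A 5 low in their groups.

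In eWAT the set leaned lower in IR 4A, without a gene that passed. None of the 30 genes tested passed the adjusted threshold, where 0.0121% of all genes did, and 26 of the 30 differences were negative. The median log2 difference was -0.39, against -0.08 over all genes, and 24 of 30 lay below the median of all genes. At an unadjusted p under 0.05 there were 4 of the 30, all lower in IR 4A, against 15.9% of all genes. Groups did not overlap in 1 of the 30, against 5.74% of all genes. DESeq2 called none of the set, where it called 1150 of 20738 genes. In bulk tissue fewer cells of a type and less RNA per cell cannot be told apart.

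Hadha was the gene without overlap. It was at 177, 209, 169, 236 and 170 CPM in WT eWAT and at 169, 141, 121, 137 and 166 CPM in IR 4A eWAT. The lowest WT library (169.1) was just above the highest IR 4A library (168.6), and the log2 difference was -0.39 (SE 0.13, edgeR adjusted p = 0.235). Its partner Hadhb, transcribed from the neighbouring start, was at 107, 95.4, 112, 165 and 102 CPM in WT and at 117, 102, 70.4, 69.5 and 115 CPM in IR 4A. The Hadhb groups overlapped (log2 difference -0.30, SE 0.20, edgeR adjusted p = 0.498).

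The other 3 were Crat, Etfdh and Vnn1. Crat was at 177, 298, 125, 270 and 115 CPM in WT and at 125, 93.8, 101, 153 and 107 CPM in IR 4A (log2 difference -0.76, SE 0.28, edgeR adjusted p = 0.254). WT 2 and WT 4 were its high libraries. Etfdh was at 66.4, 59.1, 71.7, 109 and 70.5 CPM in WT and at 65.9, 52.1, 34.4, 41.1 and 65.9 CPM in IR 4A (log2 difference -0.54, SE 0.22, edgeR adjusted p = 0.290). Vnn1 was at 15.2, 5.79, 2.59, 10.2 and 3.33 CPM in WT and at 2.08, 5.60, 2.69, 3.00 and 2.48 CPM in IR 4A, which is low throughout (log2 difference -1.22, SE 0.51, edgeR adjusted p = 0.289). Its difference came from WT 1 and WT 4, and the other 3 WT libraries lay within the IR 4A range or close to it.

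Cd36, Acadm and Acsl1 shared their high and low libraries. Cd36 was at 1361, 1038, 1514, 3121 and 1364 CPM in WT eWAT and at 1408, 885, 187, 281 and 1246 CPM in IR 4A eWAT. WT 4 was far above the rest and IR 4A 3 and IR 4A 4 far below, while the other 7 libraries ran from 885 to 1514 CPM. The log2 difference was -1.07 (SE 0.56, edgeR adjusted p = 0.382). Acadm was at 172, 145, 211, 349 and 207 CPM in WT and at 203, 140, 70.3, 93.8 and 192 CPM in IR 4A (-0.63, SE 0.33), and Acsl1 at 987, 1079, 1216, 2423 and 998 CPM in WT and at 1552, 1088, 589, 708 and 1264 CPM in IR 4A (-0.37, SE 0.34). Both showed the same high library and the same 2 low ones.

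Over the tested set WT 4 was the highest of the 10 libraries in 23 of 30 genes (76.7%, against 26.3% of all genes) and IR 4A 3 the lowest in 19 of 30 (63.3%, against 22.2%). The mean level of the 32 genes was 5.52, 5.43, 5.52, 6.21 and 5.41 on the log2 CPM scale in WT 1 to WT 5 and 5.44, 5.23, 4.66, 5.16 and 5.39 in IR 4A 1 to IR 4A 5. The level of 8 adipocyte markers was 8.71, 8.15, 8.92, 10.1 and 8.95 in WT and 9.12, 8.42, 6.55, 7.20 and 8.91 in IR 4A. The markers summed to 2852 to 10840 CPM in WT and to 910 to 5233 CPM in IR 4A, with none at 0. Their mean level was 8.97 in WT and 8.04 in IR 4A. This difference did not pass the exact permutation test (two-sided, p = 0.183, adjusted p = 0.252 over 11 marker lists). With 5 libraries per genotype that does not show equal levels. The same 3 libraries were thus at the ends of both measures.

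With WT 4, IR 4A 3 and IR 4A 4 left out the median of the set was 0.12, with 22 of 30 positive. These libraries hold the highest and the 2 lowest levels of the set itself, so leaving them out moves the difference upward by construction. With the adipocyte level as a covariate it was 0.05, with 18 of 30 positive. Under the covariate the differences were -0.37 for Cd36, -0.25 for Hadha, -0.78 for Crat, -0.18 for Etfdh and -1.14 for Vnn1, none of which passed. Both settings were chosen after the values were seen. Under several other settings the set still leaned lower in IR 4A. Without WT 4 alone its median was -0.15, with 22 of 30 negative, against -0.08 over all genes. The lean relative to all genes was then smaller: 18 of 30 lay below the median of all genes, against 24 in the main fit. Leaving out any other single library gave medians from -0.48 to -0.28. With limma voom and sample weights the median was -0.11, with 22 of 30 negative. Leaving out WT 1, WT 2, IR 4A 3 and IR 4A 4, also a later choice, gave -0.26, with 25 of 30 negative. Other marker lists moved with the genotype as well. Adipose progenitor, mesothelium, macrophage and acute phase markers had a lower mean log2 level in every IR 4A library than in any WT library. For each list the two-sided exact permutation p was 0.00794, the smallest possible (adjusted p = 0.0218). Summed CPM of the acute phase genes overlapped, with 1748 to 2787 in WT and 2126 to 2859 in IR 4A. Epididymis markers went the other way, averaging 8.92 in WT and 10.73 in IR 4A (two-sided exact permutation p = 0.0238, adjusted p = 0.0524). The WT average includes WT 4 at 3.78. The part of these lists in the values of the set was not tested.

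**Figure D4:**
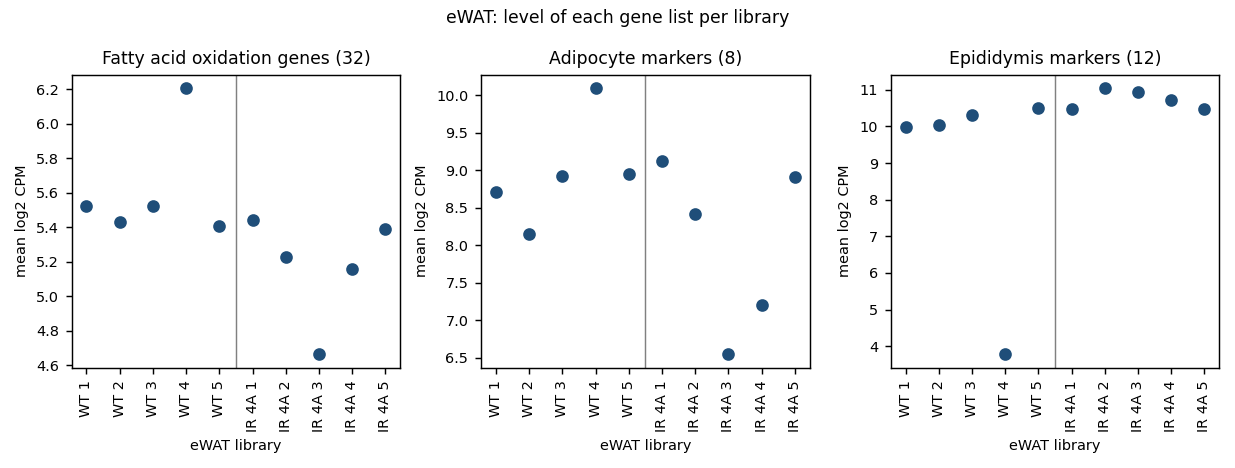
Mean log2 CPM per eWAT library of the 32 fatty acid oxidation genes (left), of 8 adipocyte markers (middle) and of 12 epididymis markers (right). WT 4 is highest in the first pair of panels (6.21 and 10.1) and lowest in the third (3.78), and IR 4A 3 is lowest in the first pair (4.66 and 6.55).

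By step, all 10 genes of the mitochondrial spiral (-0.10 for Acaa2, its thiolase, to -0.63 for Acadm), all 3 of electron transfer and all 5 peroxisomal genes had negative differences in eWAT. Of the carnitine shuttle 4 of 5 were negative, the exception being Cpt1a (0.15, SE 0.16). It was at 153, 147, 181, 116 and 212 CPM in WT and at 177, 202, 144, 183 and 188 CPM in IR 4A, so WT 4 was its lowest library. The remaining positive differences were those of Bdh1, Acot1 and Acot2. Bdh1 was at 11.1, 9.61, 8.56, 3.83 and 9.64 CPM in WT and at 11.4, 11.5, 12.4, 11.0 and 12.9 CPM in IR 4A (0.47, SE 0.25, edgeR adjusted p = 0.379). The IR 4A libraries were close together, and WT 4 was again apart, here on the low side.

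Cpt1b in eWAT moved with markers of the testis. It was at 31, 74.8, 8.03, 5.03 and 5.27 CPM in WT and at 6.02, 3.21, 26.6, 39.8 and 1.31 CPM in IR 4A (log2 difference -0.69, SE 1.05, edgeR adjusted p = 0.760). The Cpt1b difference was -3.08 with WT 4, IR 4A 3 and IR 4A 4 left out (edgeR adjusted p = 0.253) and -2.33 with the adipocyte level as a covariate (edgeR adjusted p = 0.079), and it turned to 0.37 without WT 2. The 4 high libraries, WT 1, WT 2, IR 4A 3 and IR 4A 4, were those with the highest level of 10 testis and sperm markers, 7.28 to 8.98 against 2.90 to 5.82 in the other 6. These markers summed to 156 to 6148 CPM in WT and to 134 to 2843 CPM in IR 4A, and none was at 0 in any library.

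Fabp1 in eWAT followed the mean log2 level of the 8 hepatocyte markers, which was highest in WT 4 (5.675) and IR 4A 4 (4.497). Fabp1 was at 0.388, 2.90, 3.17, 23.2 and 0 CPM in WT and at 0, 0, 0, 8.70 and 0 CPM in IR 4A. Alb, the serum albumin of hepatocytes, was at 1.94, 44.6, 32.3, 243 and 1.39 CPM in WT and at 4.80, 1.84, 0.483, 174 and 2.29 CPM in IR 4A. WT 4 and IR 4A 4 were the highest in both genes. The 8 hepatocyte markers summed to 1399 to 3973 CPM in WT and to 270 to 2474 CPM in IR 4A, mostly from Cyp2e1 at 268 to 3600 CPM, and 5 of the 8 were at 0 in at least 1 library. This sum did not follow Fabp1: it was 755 CPM in IR 4A 4, and 2474 CPM in IR 4A 1, where Fabp1 was at 0. The part of these other tissues in the levels of Cpt1b and Fabp1 was not tested.

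Whether the IR 4A difference itself differed between the tissues was tested as an interaction over all 20 libraries, given as eWAT minus liver. None of the 32 genes passed, where 2.41% of all genes did. The interaction was negative for 26 and positive for 6 of the 32, with a median of -0.35 against -0.12 over all genes. Fabp1 and Creb3l3, which were too low to test in eWAT, are among the negative ones, and without them 24 of 30 were negative, with a median of -0.33. At an unadjusted p under 0.05 there were 5 of 32, all negative, against 22.1% of all genes. They were Cd36 (-1.72, SE 0.61, edgeR adjusted p = 0.112), Hadha (-0.37, SE 0.15, edgeR adjusted p = 0.157), Acadl (-0.79, SE 0.33, edgeR adjusted p = 0.171), Acadm (-0.76, SE 0.34, edgeR adjusted p = 0.189) and Vnn1 (-1.11, SE 0.52, edgeR adjusted p = 0.214). Without eWAT WT 4 the median of the 32 interactions was -0.07, with 19 of 32 negative. Crat was lower in IR 4A in both tissues (-0.77 in liver and -0.76 in eWAT), without passing in either.

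**Figure D5:**
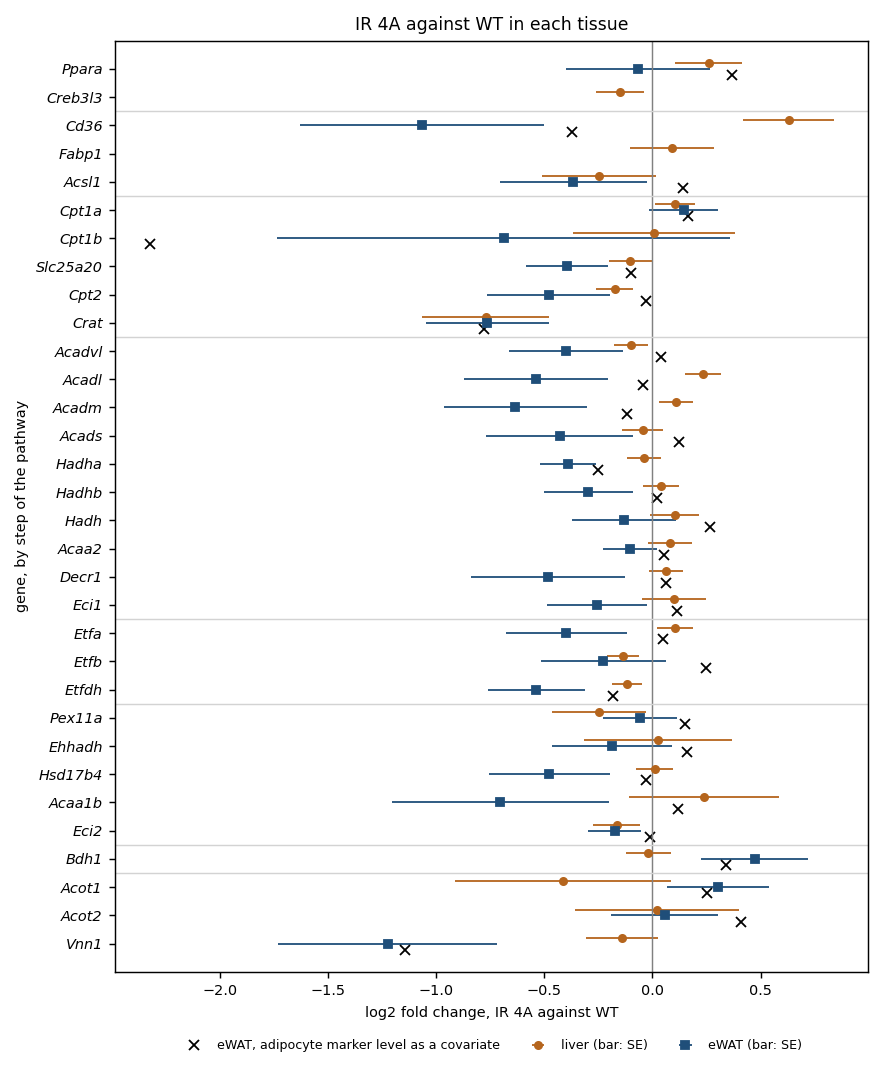
Log2 fold change of IR 4A against WT for each gene in liver (circles) and eWAT (squares), with bars of 1 SE, and in eWAT with the adipocyte marker level as a covariate (crosses, no error shown). In eWAT most squares lie left of 0, with a median of -0.39, and most crosses lie nearer to 0 or right of it, with a median of 0.05.

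Other genes of fatty acid and ketone metabolism were counted in the same way. Of 74 listed genes outside the set, 72 were tested in liver, with 41 positive and 31 negative differences, 69 in eWAT, with 22 positive and 47 negative, and 73 for the interaction, with 22 positive and 51 negative. None passed in any of these 3 comparisons, where 0.00805%, 0.0121% and 2.41% of all genes did. Their medians were 0.04 in liver, -0.18 in eWAT and -0.22 for the interaction. At an unadjusted p under 0.05 there were 18 of 72 in liver (9 higher, 9 lower), 6 of 69 in eWAT (3 higher, 3 lower) and 18 of 73 for the interaction (5 positive, 13 negative). The shares over all genes tested were 18.1%, 15.9% and 22.1%. In eWAT the differences were negative for all 7 ketone body genes of this list (median -0.37), 10 of 12 regulators and other targets, 10 of 14 mitochondrial, 14 of 24 peroxisomal and 6 of 12 transport and activation genes. In WT animals 59 of 73 were lower and 9 higher in eWAT than in liver, against 33.9% lower and 43.2% higher over all genes. The smallest p-values were those of 4 genes of fatty acid metabolism: Amacr (-4.88), Slc27a2 (-8.47), Pecr (-4.59) and Acox2 (-8.42), each lower in eWAT.

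In liver the smallest p among them was that of Slc16a7, a carrier of lactate and ketone bodies, with 39.1 ± 9.46 CPM in the WT libraries against 71.3 ± 12.2 CPM in those of IR 4A (log2 difference 0.87, SE 0.17, edgeR adjusted p = 0.101). Hacl1, a lyase of peroxisomal α-oxidation, was at 164 ± 28.5 and 109 ± 21.2 CPM (-0.59, edgeR adjusted p = 0.133). The thioesterases Acot13 and Acot8 differed by 0.42 and -0.46, and the groups of Acot13 did not overlap. In the authors' deposited table for liver 4 of these genes passed: Hibch (adjusted p = 0.0019), an enzyme of valine breakdown, Slc16a7 (0.00401), the nuclear receptor gene Nr1h3 (0.031) and Hacl1 (0.0367).

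In eWAT the genes with small p-values included Pex2, a peroxisome assembly factor (0.27, edgeR adjusted p = 0.249), Ncor1, a corepressor of nuclear receptors (-0.39), and Acot13 (0.32). For the interaction the smallest p-values were those of Ncor1 (-0.51, edgeR adjusted p = 0.0751), Crot, which puts medium chains on carnitine in peroxisomes (0.81), Abcd2, a peroxisomal importer of very long chains (-2.67), and the coactivator gene Ppargc1b (-1.34).

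In the authors' deposited tables none of the 32 genes passed in liver, where 330 of 13225 genes did (2.5%), or in eWAT, where 503 of 18608 did (2.7%) and 31 of the 32 had an adjusted p. The smallest adjusted p of the set in the authors' deposited table for liver was that of Acadm (0.0718, log2 fold change 0.26). The edgeR fit gave Acadm a smaller log2 difference in liver, 0.11 (SE 0.08, edgeR adjusted p = 0.478). Signs in the authors' tables were the same as in the edgeR values for 29 of the 32 genes in liver. In eWAT they were the same for 28 of the 30 tested.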

How the data were processed

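Estimated counts per gene were deposited by the authors as whole numbers, and the submitters' processing notes name Salmon 1.8.0 and the GRCm39 build. The authors also deposited log2 values of an unstated transform, used only as a check (lowest rank correlation with log2 CPM 0.995 in liver and 0.987 in eWAT), and tables of their DESeq2 1.32.0 comparisons. Per the file headers these hold, for each gene, a mean signal (size-factor-scaled counts), the log2 fold change with its error, a test statistic (a score), and raw and adjusted p-values. Each column was assigned by its tissue, genotype and number, with Ctl read as WT.

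Repeated identifiers were dropped (83 in liver, 208 in eWAT). The filterByExpr function of edgeR 4.0.16 (at least 10 counts, total of at least 15) kept the genes tested (12421 in liver, 16476 in eWAT, 14696 of 15350 in both). Libraries were scaled by TMM, and edgeR's quasi-likelihood F test was two-sided, adjusted by Benjamini-Hochberg, with calls under 0.05 (R 4.3.3). SE is the log2 fold change divided by the square root of F. Tests between tissues used all 20 libraries. Levels of lists are means of log2 CPM (prior count 2), compared over all 252 splits of 10 libraries. The script was tested on simulated data. Transcript lengths came from the GENCODE M21 annotation of GRCm38 and promoters from RefSeq.

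The genes, their steps and the lists were chosen with earlier results of these data known. All 32 genes are named, and of the 74 other genes up to 4 per comparison with the smallest unadjusted p. A gene that this rule names in eWAT is not reported here. No library duplicated another. Depth limits the precision of genes with few counts. The common coefficient of biological variation from edgeR measures the spread between libraries beyond counting noise. It was 0.187 for liver libraries and 0.512 for eWAT libraries. Alternatives were RLE and upper-quartile scaling, library totals alone, dropping the filter or raising it to 1 CPM in at least 5 libraries, DESeq2 1.42.0, limma 3.58.1 voom with sample weights, a fit of all 20 libraries, the replicate number as a block, covariates, and libraries left out.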

Additional observations from a re-analysis of the deposited data

Results flagged for a closer look

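Each gene's 5 libraries in each group of each tissue were checked for 1 library set apart from the other 4, by the gap to its nearest neighbour over the whole range. Of 128 groups checked 24 had such a library, where chance at 1 in 20 would give 6.4. The genes of a pathway are not independent, so 1 library can account for many of these.

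In eWAT WT 4 stood apart on the high side in 16 genes. Its values were 2.11 CPM for Creb3l3, 3121 for Cd36, 23.2 for Fabp1, 2423 for Acsl1, 89.6 for Cpt2, 265 for Acadl, 165 for Hadhb, 251 for Hadh and 150.0 for Decr1. Electron transfer and peroxisomal genes followed, with 170 CPM for Etfa, 127 for Etfb, 109 for Etfdh, 51.7 for Pex11a, 298 for Hsd17b4, 42.6 for Acaa1b and 113 for Eci2. This library also had the highest adipocyte marker level (10.1) and the lowest epididymis marker level (3.78) of the 10.

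In liver WT 5 stood apart on the high side in 4 genes, with 2055 CPM for Acsl1, 111 for Slc25a20, 78.6 for Acot1 and 12.7 for Acot2. Single flags were liver IR 4A 1 for Acads, the dehydrogenase of short chains (81.9 CPM, high), liver IR 4A 5 for Cpt1a (567 CPM, low), eWAT IR 4A 4 for Fabp1 (8.70 CPM, high) and eWAT IR 4A 2 for Vnn1 (5.60 CPM, high).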

How the results depend on the processing

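Over the alternatives run, the log2 differences of single genes kept their direction and side of the threshold in 605 of 672 values in liver, 612 of 660 in eWAT, 814 of 863 for the interaction and 525 of 543 between WT tissues. No gene of the set passed in liver, eWAT or the interaction under any of them, except Acadl in liver with plain library totals (1 gene). Low-count genes are limited by depth: Cpt1b had as few as 10 counts in a liver library and Fabp1 had 0 in some eWAT libraries.

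The number of all genes that passed depended more on the setting than on the set. In liver it was 1, and 386 with plain library totals, 435 with DESeq2, 3 with the replicate block, 4 with voom, 49 with all 20 libraries, and 0 both without WT 1 and WT 3 and with the acute phase covariate. In eWAT it was 2, and 1 with upper-quartile scaling, plain library totals or the stricter filter, 1150 with DESeq2, 78 with voom, 295 with all 20 libraries, 1078 with the adipocyte covariate, and 0 without the filter, with the replicate block, without the 4 libraries high in testis markers and without WT 4, IR 4A 3 and IR 4A 4. For the interaction it was 354, and 731 with plain library totals, 1244 with DESeq2 and 0 with the replicate block. The cause was not tested. Same-numbered libraries did not deviate together (correlations from -0.073 to 0.077 between genotypes in liver, -0.73 to 0.67 in eWAT, and -0.11 to 0.043 between tissues), so the numbers were not taken to pair samples. With the block the call of Cpt1b between WT tissues was lost (1.20, edgeR adjusted p = 0.277). In liver WT 3 and in eWAT WT 5 and IR 4A 5 correlated best with their own number.

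Differences that turned sign in liver were, with plain library totals, Slc25a20 0.053, Acadvl 0.056, Acads 0.11, Hadha 0.12, Etfb 0.021, Etfdh 0.040, Bdh1 0.13, Vnn1 0.0061 and Creb3l3 0.0014. Without the filter they were Cpt1b -0.0059 and Hsd17b4 -0.0036, with DESeq2 Cpt1b -0.00045, with the replicate block Acot1 0.069, with voom Acot1 0.059, and with all 20 libraries Bdh1 0.013. Without WT 1 and WT 3 they were Hadh -0.028, Acaa1b -0.15, Acaa2 -0.046, Ehhadh -0.33, Hsd17b4 -0.028, Decr1 -0.014, Eci1 -0.087, Fabp1 -0.11 and Acot2 -0.25. With the acute phase covariate they were Cpt1b -0.12, Hadh -0.043, Acaa1b -0.25, Acaa2 -0.051, Ehhadh -0.38, Hsd17b4 -0.028, Decr1 -0.0077, Eci1 -0.10, Etfa -0.0032, Fabp1 -0.19 and Acot2 -0.17.

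In eWAT Pex11a turned to 0.027 with upper-quartile scaling and Ehhadh to 0.091 without the testis-high libraries. With voom Ppara was 0.15, Hadh 0.094, Etfb 0.049 and Pex11a 0.15. Without WT 4, IR 4A 3 and IR 4A 4 the median was 0.12 and those that turned were Ppara 0.35, Cpt2 0.052, Acsl1 0.28, Acadl 0.080, Acadvl 0.11, Acads 0.18, Hadhb 0.10, Hadh 0.32, Acaa1b 0.26, Acaa2 0.037, Ehhadh 0.22, Hsd17b4 0.045, Decr1 0.17, Eci1 0.15, Eci2 0.049, Etfa 0.14, Etfb 0.33 and Pex11a 0.21. With the adipocyte covariate the median was 0.05 and they were Ppara 0.37, Acsl1 0.14, Acadvl 0.037, Acads 0.12, Hadhb 0.021, Hadh 0.27, Acaa1b 0.12, Acaa2 0.055, Ehhadh 0.16, Decr1 0.062, Eci1 0.11, Etfa 0.050, Etfb 0.25 and Pex11a 0.15. Library totals alone, both covariates and the 2 sets of eWAT libraries left out were chosen after seeing the data.

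For the interaction Eci2 turned to 0.019 with RLE scaling, 0.070 with upper-quartile scaling and 0.020 with DESeq2, and Crat to -0.0011 with the stricter filter. Acot2 turned to -0.0061 with the replicate block, and plain library totals gave Cpt1a -0.055, Crat -0.051 and Acot2 -0.043. Between WT tissues Acot2 was 0.088 with upper-quartile scaling, and plain library totals gave Acsl1 0.39, Acot2 1.29 and a median of -0.88.

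With each library left out in turn, the genes that passed ran from 0 to 143 in liver (143 without IR 4A 1), from 0 to 6 in eWAT and from 70 to 729 for the interaction. In liver the differences that turned at least once ran from -0.25 to 0.21 for Cpt1b, -0.15 to 0.51 for Ehhadh, -0.027 to 0.066 for Hsd17b4, -0.014 to 0.18 for Eci1, -0.056 to 0.19 for Fabp1, -0.24 to 0.49 for Acot2, -0.11 to 0.012 for Acads, -0.10 to 0.037 for Bdh1, -0.40 to 0.084 for Acsl1, -0.071 to 0.011 for Hadha, -0.37 to 0.0075 for Pex11a, -0.63 to 0.46 for Acot1 and -0.0051 to 0.086 for Hadhb. In eWAT they ran from -1.42 to 0.37 for Cpt1b, -0.065 to 0.19 for Acot2, -0.18 to 0.11 for Ppara, -0.23 to 0.10 for Hadh, -0.34 to 0.042 for Etfb and -0.10 to 0.13 for Pex11a. For the interaction they ran from -0.47 to 0.27 for Acsl1, -0.10 to 0.16 for Eci2, -0.25 to 0.25 for Crat, -0.033 to 0.14 for Cpt1a, -0.082 to 0.45 for Pex11a, -0.18 to 0.91 for Acot1, -0.45 to 0.27 for Acot2, -1.44 to 0.31 for Cpt1b, -0.48 to 0.0054 for Cpt2, -0.42 to 0.0095 for Acadvl, -0.36 to 0.055 for Hadh, -0.22 to 0.23 for Etfb and -9.26 to 0.19 for Fabp1. The last value comes with every remaining IR 4A eWAT library at 0 counts and is set by the prior count. Between WT tissues Acot2 ran from -0.47 to 0.28.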
